A study of Mus musculus with 12 samples.

Results

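CXC chemokine ligands are small secreted proteins that draw leukocytes towards their source. Their RNA was compared in alveolar macrophages, phagocytes that live on the surface of the air sacs, after ozone and after filtered air. The 10 ligands are Cxcl1, Cxcl2, Cxcl3, Cxcl9, Cxcl10, Cxcl11, Cxcl12, Cxcl14, Cxcl16 and Pf4. They were taken by gene symbol from a table of 55291 genes, and all 10 were found. The table holds 12 mice, all female C57BL/6NJ aged 8 to 11 weeks. In the ozone group, 6 mice breathed 0.8 ppm ozone for 4 h a day on 4 days in a row, and in the control group 6 mice breathed filtered air on the same schedule. Lungs were taken 3 days after the last exposure, and alveolar macrophages were isolated by flow sorting in 2 batches, each with 3 mice of each group. No allele or agent beyond these is named in the labels. Each library came from the sorted cells of 1 mouse, so the spread given below is between animals.

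Each value is a variance-stabilised expression level on a log2 scale, with the filtered-air mean of every gene set to 0. The values therefore show how a ligand differs between mice, and not whether 1 ligand is more abundant than another. Differences on this scale are smaller than the log2 fold change for genes with few reads.

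The ligands fall into classes by receptor and by the signals that induce them. Cxcl1, Cxcl2 and Cxcl3 bind the receptor Cxcr2 and attract neutrophils, and their genes are classical targets of NF-kB, the transcription factor activated by Toll-like receptors, IL-1 and TNF. Cxcl9, Cxcl10 and Cxcl11 bind Cxcr3 on activated T cells and NK cells, and are induced by interferons, Cxcl9 chiefly by interferon-gamma. The remaining ligands are more often made constitutively: Cxcl12 is the stromal ligand of Cxcr4, Cxcl14 is an epithelial and fibroblast chemokine, Cxcl16 is a membrane-bound ligand of Cxcr6 that is shed by Adam10, and Pf4 is the platelet factor stored in alpha granules. In the lung, alveolar macrophages are a known source of neutrophil-attracting ligands after inhaled irritants.

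Both inducible classes lie on mouse chromosome 5. Their promoters are shown because the letters of a strict NF-kB pattern, defined below, were found in the neutrophil-attracting class. In GENCODE M21 on GRCm38, Pf4 (chr5:90772435-90773383), Cxcl3 (chr5:90786103-90789600), Cxcl1 (chr5:90891241-90893115) and Cxcl2 (chr5:90903871-90905938) lie on the plus strand. Cxcl9 (chr5:92321347-92328079), Cxcl10 (chr5:92346638-92348889) and Cxcl11 (chr5:92359544-92365485) lie on the minus strand. The other ligands are on other chromosomes, Cxcl12 at chr6:117168535-117181367 on the plus strand, Cxcl14 at chr13:56288643-56296551 and Cxcl16 at chr11:70453983-70459984 on the minus strand. The sequences below are from RefSeq on GRCm38 and end at the base before the RefSeq start of the gene, 130 bases for the neutrophil-attracting class and 250 for the interferon-type class, 5′ to 3′ on the gene's strand. Capitals mark matches, on either strand, to the kB motif (GGG, any pair of bases, then TTTCC) or to the interferon-stimulated response element (GAAA, any pair of bases, then GAAA).
Cxcl1 (chr5:90891115-90891244, plus strand): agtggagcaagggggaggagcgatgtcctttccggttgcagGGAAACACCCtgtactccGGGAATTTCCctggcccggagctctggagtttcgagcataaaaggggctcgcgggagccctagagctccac
Cxcl2 (chr5:90903769-90903898, plus strand): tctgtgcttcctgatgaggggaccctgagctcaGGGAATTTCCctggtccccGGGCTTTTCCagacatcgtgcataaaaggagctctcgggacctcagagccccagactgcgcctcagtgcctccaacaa
Cxcl3 (chr5:90785971-90786100, plus strand): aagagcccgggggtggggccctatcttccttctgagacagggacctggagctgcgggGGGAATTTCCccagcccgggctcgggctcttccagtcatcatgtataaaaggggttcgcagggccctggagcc
Cxcl9 (chr5:92328080-92328329, minus strand): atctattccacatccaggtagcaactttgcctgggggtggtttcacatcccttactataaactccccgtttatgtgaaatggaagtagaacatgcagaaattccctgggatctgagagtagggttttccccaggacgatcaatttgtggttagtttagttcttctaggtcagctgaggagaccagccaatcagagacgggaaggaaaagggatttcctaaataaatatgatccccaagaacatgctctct
Cxcl10 (chr5:92348890-92349139, minus strand): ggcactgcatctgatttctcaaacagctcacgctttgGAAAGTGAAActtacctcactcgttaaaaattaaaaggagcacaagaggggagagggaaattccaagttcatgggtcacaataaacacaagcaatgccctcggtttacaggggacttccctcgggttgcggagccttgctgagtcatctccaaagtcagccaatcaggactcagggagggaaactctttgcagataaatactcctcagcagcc

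RefSeq promoters were matched for 8 of the 10 ligands, and the motifs were searched on both strands from 250 bases before to 50 bases after the start. The kB letters were found in the promoters of Cxcl1, Cxcl2 and Cxcl3 and in those of 0 of the other 5 matched ligands, against 1.63% of 32851 promoters of the same length. Cxcl2 held them at -97 to -88 and at -78 to -69 from the start, Cxcl1 at -89 to -80 on the opposite strand and at -71 to -62, and Cxcl3 at -73 to -64. The response element was found in Cxcl10 at -213 to -204 and in Cxcl14, against 3.44% of promoters. These are matches of letters, and binding was not measured. The kB pattern fixes TTTCC at its end, and looser forms of it were not searched. Near matches, such as gggacttccc in the Cxcl10 sequence above, were not counted. A promoter without a match is therefore not shown to lack kB sites.

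Of the 9 ligands that could be tested, 2 rose after ozone, Cxcl2 and Cxcl9, and 0 fell. Over all 19633 genes tested, 4.25% were called in limma at an adjusted p under 0.05, 2.41% as higher and 1.84% as lower. The 2 called ligands belong to different classes, the first being a neutrophil attractant and the second an interferon-type ligand. Differences lay above 0 in 7 of the 9 and below 0 in 2, with a median of 0.065, against 48% of all genes above 0 and a median of -0.0033. The groups were separate, with no overlap between any ozone and any filtered-air mouse, in 0 of the 9 ligands, against 3.53% of all genes. In bulk RNA of sorted cells, a change in the cells that make a ligand and a change in RNA per cell cannot be told apart.

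**Figure D1:**
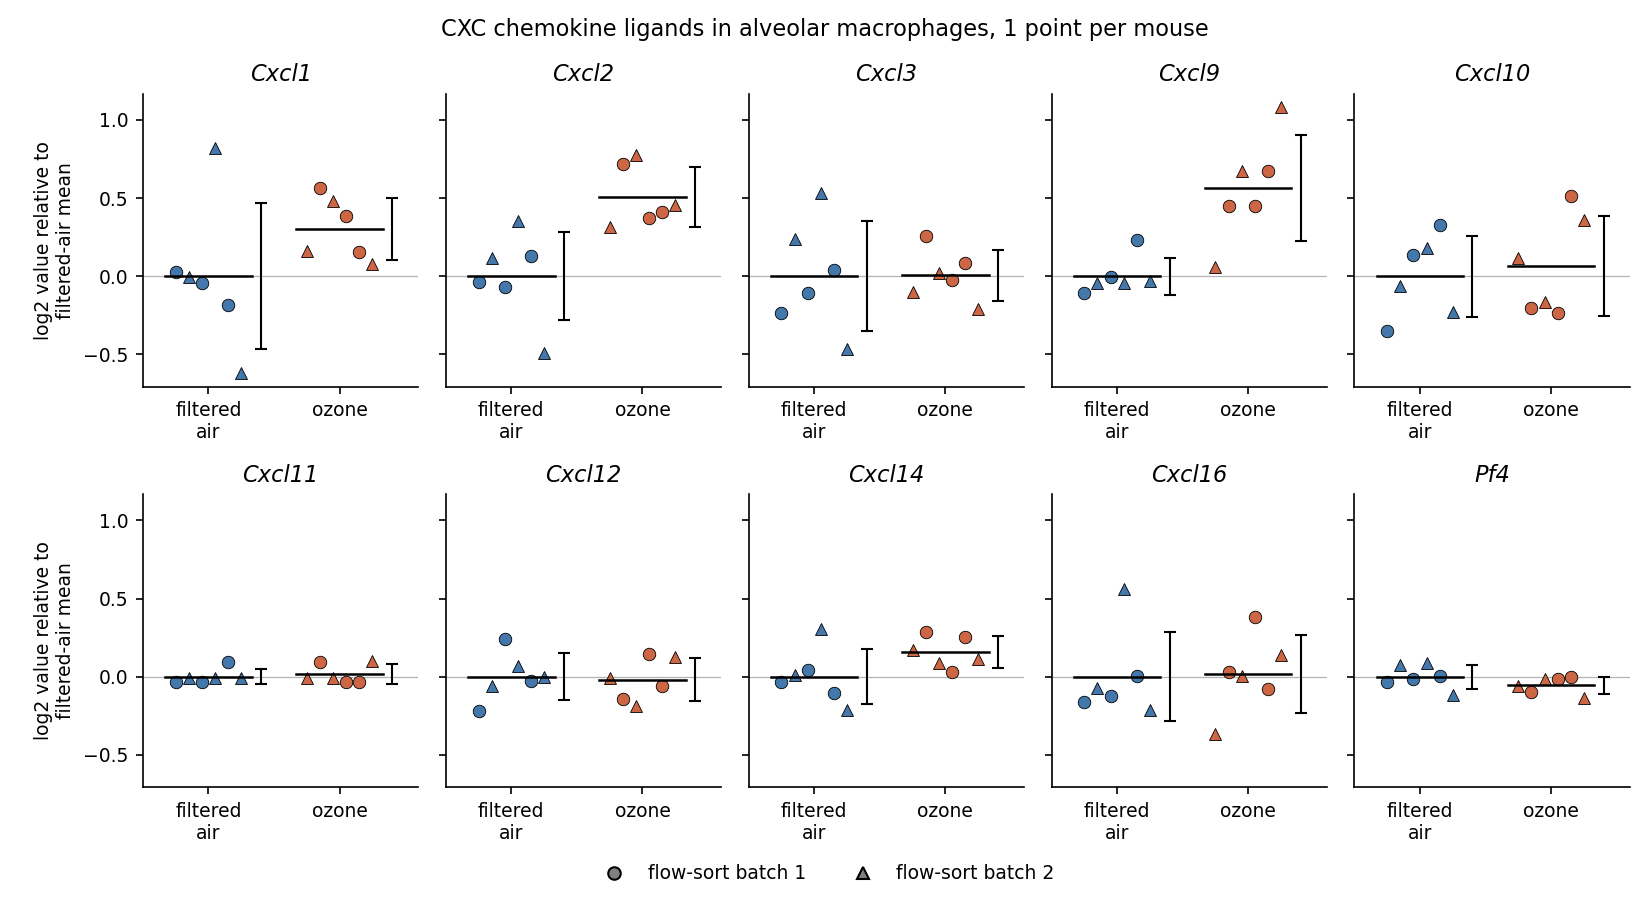
Level of each CXC ligand in every mouse (vertical axis, log2 scale, filtered-air mean at 0), 6 filtered-air and 6 ozone mice per ligand. For Cxcl2 and Cxcl9, 5 of 6 ozone mice lie above the highest filtered-air mouse, while in the other ligands the groups overlap more widely.

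Cxcl2, a strong neutrophil attractant that macrophages release within hours of a danger signal, ranged from -0.49 to 0.35 in filtered air with a median of 0.040, and from 0.31 to 0.78 after ozone with a median of 0.44. Ozone mice 3 and 2 were highest, at 0.78 and 0.72, and 5 of 6 ozone mice lay above the highest filtered-air mouse. The overlap came from ozone mouse 1, at 0.31, below filtered-air mouse 4 at 0.35. Cxcl2 rose by 0.51 (SE 0.120, 95% interval 0.25 to 0.77, limma's adjusted p = 0.0281). The rise was 0.49 in batch 1 and 0.52 in batch 2. Leaving out filtered-air mouse 1 or 3 or ozone mouse 2 or 3 ended the call, with adjusted p-values of 0.0596 to 0.0713 in limma. Over all fits with 1 mouse removed the rise was 0.40 to 0.59. The call was also lost when the prior variance followed the mean (adjusted p = 0.0596) and after quantile normalization (0.45, adjusted p = 0.167). Filtered air is set to 0 for every gene, so that mean follows the ozone difference and not abundance.

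Cxcl1, the close relative of Cxcl2 that also binds Cxcr2, ranged from -0.62 to 0.82 in filtered air with a median of -0.023, and from 0.075 to 0.56 after ozone with a median of 0.27. All 6 ozone mice lay above 0, yet all 6 also lay inside the filtered-air range, whose ends were filtered-air mice 6 and 4. The SD was 0.469 in filtered air and 0.200 after ozone. The difference was 0.30 (SE 0.177, 95% interval -0.075 to 0.68, limma's adjusted p = 0.436), with 0.43 in batch 1 and 0.17 in batch 2. Without filtered-air mouse 4 it was 0.49 and was called (adjusted p = 0.0248), and without filtered-air mouse 6 it was 0.16 (adjusted p = 0.678).

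Cxcl3, the third Cxcr2 ligand of this group, ranged from -0.47 to 0.53 in filtered air with a median of -0.035, and from -0.21 to 0.26 after ozone with a median of -0.0028. All 6 ozone mice lay within the filtered-air range, and 3 lay above 0. The difference was 0.0048 (SE 0.136, 95% interval -0.29 to 0.30, limma's adjusted p = 0.993). It was 0.21 in batch 1 and -0.20 in batch 2, and limma's interaction of ozone and batch gave an unadjusted p of 0.144 and an adjusted p of 1.00. Over all genes tested, the interaction called 0 genes (0%), with 510 at an unadjusted p under 0.05. Cxcl1, Cxcl2 and Cxcl3 are close in sequence, and how reads shared between them were counted is not given in the sources used here, so their separate values are uncertain to that extent.

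Cxcl9, the interferon-gamma-induced ligand of Cxcr3, ranged from -0.11 to 0.23 in filtered air with a median of -0.037, and from 0.057 to 1.08 after ozone with a median of 0.56. Ozone mouse 6 was highest, at 1.08, and ozone mouse 1 was lowest, at 0.057, the only ozone mouse inside the filtered-air range. The spread was wider after ozone (SD 0.340) than in filtered air (SD 0.119). Cxcl9 rose by 0.56 (SE 0.126, 95% interval 0.29 to 0.83, limma's adjusted p = 0.0210). The rise was 0.48 in batch 1 and 0.64 in batch 2. Removal of filtered-air mouse 1 or of ozone mouse 3 or 5 ended the call (limma's adjusted p = 0.0525 to 0.0545). It was also lost when the prior variance followed the mean, with the limit given for Cxcl2 (adjusted p = 0.0616), and after quantile normalization (0.48, adjusted p = 0.0767). The smallest rise, 0.45, was found when ozone mouse 6 was removed and the largest, 0.68, when ozone mouse 1 was, and both were called.

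Cxcl10, which shares Cxcr3 with Cxcl9 and responds to type I interferon as well, ranged from -0.35 to 0.33 in filtered air with a median of 0.035, and from -0.23 to 0.51 after ozone with a median of -0.023. Ozone mice 5 and 6 lay above the highest filtered-air mouse, at 0.51 and 0.36, and ozone mice 2, 3 and 4 lay below 0. The difference was 0.065 (SE 0.143, 95% interval -0.24 to 0.37, limma's adjusted p = 0.882), with -0.013 in batch 1 and 0.14 in batch 2. Cxcl11, the remaining Cxcr3 ligand, had reads in 3 of 12 mice, filtered-air mouse 5 and ozone mice 2 and 6, and was not tested. In these mice it lay 0.13, 0.13 and 0.11 above the level without reads, where 1 read is worth 0.11 in each. C57BL/6 mice are known to carry a frameshift in Cxcl11, so its transcript does not encode a full ligand in this strain.

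The remaining ligands did not pass the test. Cxcl14 ranged from -0.21 to 0.30 in filtered air with a median of -0.014, and from 0.031 to 0.29 after ozone with a median of 0.14. All 6 ozone mice lay above 0 and within the filtered-air range. The difference was 0.16 (SE 0.0743, 95% interval -0.0012 to 0.32, limma's adjusted p = 0.303), and without filtered-air mouse 4 it was 0.23 and called (adjusted p = 0.0396). Without filtered-air mouse 6 it was 0.11 (limma's adjusted p = 0.503). Pf4, the platelet chemokine, had the narrowest 95% interval of the 9, -0.15 to 0.036 around a difference of -0.055 (SE 0.0425, limma's adjusted p = 0.590). Its ozone mice ranged from -0.14 to -0.0049 and its filtered-air mice from -0.12 to 0.088. Cxcl12 differed by -0.020 (SE 0.0754, 95% interval -0.18 to 0.14, limma's adjusted p = 0.938), with ozone mice from -0.19 to 0.15 and filtered-air mice from -0.22 to 0.24. Cxcl16 differed by 0.017 (SE 0.132, 95% interval -0.27 to 0.30, limma's adjusted p = 0.972). Its ozone mice ranged from -0.37 to 0.38 and its filtered-air mice from -0.21 to 0.56, the highest being filtered-air mouse 4. The difference of Cxcl16 was 0.20 in batch 1 and -0.17 in batch 2 (interaction in limma, unadjusted p = 0.170, adjusted p = 1.00).

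**Figure D2:**
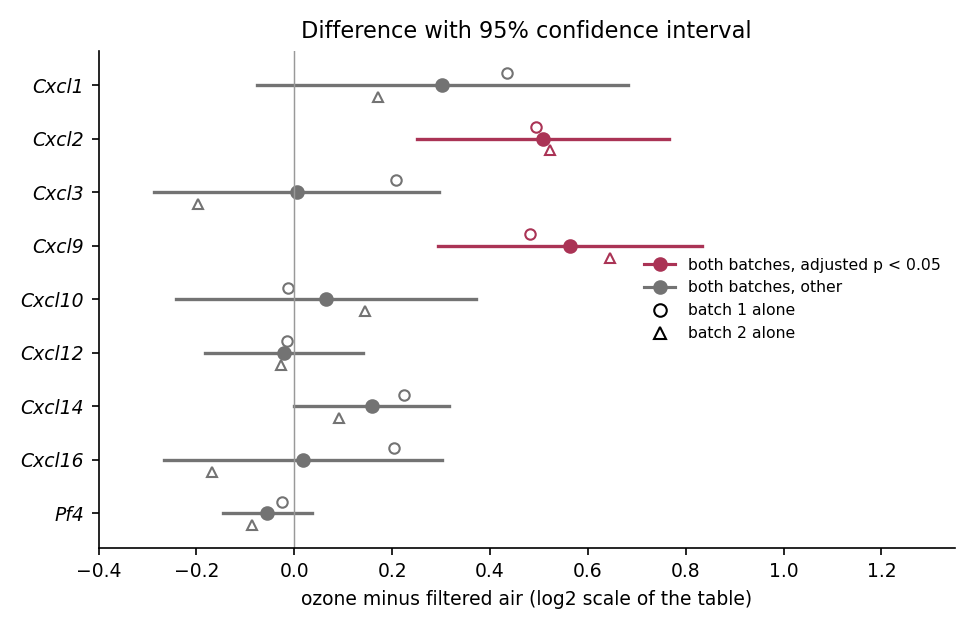
Ozone minus filtered air for the ligands (horizontal axis, log2 scale), with 95% intervals over 6 mice per group and the differences within each flow-sort batch. The intervals of Cxcl2 and Cxcl9 lie above 0, and the batch values of Cxcl3, Cxcl10 and Cxcl16 lie on opposite sides of 0.

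The classes were then set side by side, to ask whether the neutrophil-attracting and the interferon-type ligands differed in their response. The mean of Cxcl1, Cxcl2 and Cxcl3 in a mouse ranged from -0.53 to 0.57 in filtered air and from 0.11 to 0.51 after ozone, where its mean was 0.27 ± 0.164 (SD, n = 6). The mean of Cxcl9 and Cxcl10 ranged from -0.23 to 0.28 in filtered air and from 0.087 to 0.72 after ozone, where its mean was 0.31 ± 0.275 (SD, n = 6). Both class means overlapped between the exposures. Ozone mice 2 and 3 had the highest neutrophil-attracting mean, 0.51 and 0.43, while ozone mice 6 and 5 had the highest interferon-type mean, 0.72 and 0.59. In each class 1 ligand was called, and the other tested ligands were not.

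The differences between ligands were tested directly, over the 10 pairs of the 5 tested ligands of these classes, with a two-sided exact permutation test on the difference of each pair within a mouse. The scale shrinks differences more for genes with few reads. A difference between ligands therefore also depends on their read numbers, which are not known. The pair of Cxcl2 and Cxcl3 passed after adjustment over the 10 pairs when mice were permuted over both batches, and not when they were permuted within batches. The ozone response of Cxcl2 exceeded that of Cxcl3 by 0.50, with Cxcl2 minus Cxcl3 at 0.33 to 0.75 in ozone mice and at -0.18 to 0.20 in filtered-air mice. This pair did not overlap between the groups (exact permutation p = 0.00216, adjusted p = 0.0216, the first being the smallest value that 6 mice against 6 allow). Within batches the exact permutation p was 0.005, again the smallest possible, and 0.05 after adjustment, which is not under the threshold. Cxcl9 exceeded Cxcl10 by 0.50 (exact permutation p = 0.0260, adjusted p = 0.0866), Cxcl1 exceeded Cxcl3 by 0.30 (exact permutation p = 0.0346, adjusted p = 0.0866) and Cxcl3 differed from Cxcl9 by -0.56 (exact permutation p = 0.0173, adjusted p = 0.0866).

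Of the 6 pairs that join the classes, 0 passed. The responses of Cxcl2 and Cxcl9, the 2 called ligands, differed by -0.055 for Cxcl2 minus Cxcl9 (exact permutation p = 0.771, adjusted p = 0.771), with the values of single mice from -0.63 to 0.27 after ozone and from -0.46 to 0.40 in filtered air. Cxcl2 exceeded Cxcl10 by 0.44 (exact permutation p = 0.0649, adjusted p = 0.130). Cxcl1 differed from Cxcl9 by -0.26 (adjusted p = 0.476 in the exact permutation test) and from Cxcl10 by 0.24 (adjusted p = 0.476), and Cxcl3 from Cxcl10 by -0.060 (adjusted p = 0.771). A p above the threshold does not show that 2 ligands respond alike. These tests were chosen after the values had been seen.

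The covariation of the ligands between mice was then examined, and it did not pass the threshold after adjustment in any pair. After group and batch means were removed, Pearson's r over the 12 mice was 0.82 for Cxcl1 and Cxcl2, 0.84 for Cxcl1 and Cxcl3, and 0.83 for Cxcl2 and Cxcl3. The permutation p-values were 0.00971, 0.00552 and 0.00314, and each was 0.0699 after adjustment over the 36 pairs of the 9 tested ligands. The same adjusted p was reached by Cxcl3 with Cxcl14 (r = 0.80, permutation p = 0.00841) and with Pf4 (r = 0.78, permutation p = 0.00931), so these values do not set the neutrophil-attracting ligands apart. Spearman's rho was 0.64, 0.59 and 0.65 (permutation p = 0.0355, 0.0607 and 0.0271, each 0.313 after adjustment). Without filtered-air mice 4 and 6, which lay farthest out, r was 0.64, 0.44 and 0.60, so the Cxcl1 and Cxcl3 relation rests largely on them. In batch 1, to which neither belongs, r was 0.39, 0.031 and 0.87, and in batch 2 it was 0.92, 0.95 and 0.93, over 6 mice each. For Cxcl9 and Cxcl10, r was 0.45 (permutation p = 0.221, adjusted p = 0.497) and rho 0.64 (permutation p = 0.0449, adjusted p = 0.313). It was 0.70 without ozone mice 1 and 6 together, 0.72 without ozone mouse 1 alone, 0.28 without ozone mouse 6 alone, and 0.92 in batch 1 against 0.28 in batch 2. In all, 0 of the 36 pairs had an adjusted p under 0.05.

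Filtered-air mice 4 and 6 set the ends of the control range for several ligands. Mouse 4 was the highest filtered-air mouse in 6 of the 9 tested ligands, and mouse 6 the lowest in 6. Filtered-air mouse 4 also had the highest mean level of the 6 filtered-air mice in 8 of 9 marker lists of other cell types, and the lowest RNA integrity number of the series, 8.9. Without both mice, Cxcl2 rose by 0.46 (limma's adjusted p = 0.0195), while Cxcl9 had a difference of 0.54 (adjusted p = 0.0984) and Cxcl1 of 0.37 (adjusted p = 0.0620). The part of these mice's other RNA in the ligand values was not tested.

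Genes whose level followed a ligand most closely between mice were taken from 17168 genes with reads in all 12 mice, by Pearson's r after removal of group and batch means. For Cxcl2 they were Pop1 (0.91), Gm8451 (0.91), Ccrl2 (0.90), Hilpda (0.90) and 2510009E07Rik (0.89). Ccrl2, an atypical receptor that presents chemerin, differed by 0.39 after ozone (limma's adjusted p = 0.0609). For Cxcl9 they were Gm16537 (0.93), Smg6 (0.93), Tspoap1 (0.92), Ctrl (0.92) and Pisd-ps1 (0.92). For Cxcl10 they were Rnf113a2 (0.93), Treml4 (0.93), Nedd4l (0.91), Cd209b (0.90) and Rpsa-ps11 (0.89). None of these 15 genes was called after ozone. They are the highest of 17168 values over 12 mice, and are given as a description.

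Of the receptors for CXC ligands, 2 of 7 tested were called, both higher, against 2.41% of all genes called higher. Cxcr2, the receptor of Cxcl1, Cxcl2 and Cxcl3, ranged from -0.25 to 0.32 in filtered air and from 0.59 to 1.02 after ozone, with no overlap. It rose by 0.79 (SE 0.0909, limma's adjusted p = 0.000451), and the call was lost when the prior variance followed the mean (adjusted p = 0.159). That mean follows the ozone difference here, and the SE became 0.283. Cxcr4, the receptor of Cxcl12, ranged from -0.084 to 0.097 in filtered air and from 0.070 to 0.49 after ozone, and rose by 0.35 (SE 0.0627, adjusted p = 0.00620 in limma). Cxcr3, the receptor of the interferon-type ligands, differed by -0.024 (adjusted p = 0.890). Ackr1 had reads in 1 mouse and was not tested. The median of the 7 receptors was 0.0040.

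Among the CXC ligands outside the 10, 4 of 5 were tested and 0 were called, with a median of 0.032, against 4.25% of all genes called. Cxcl5, another Cxcr2 ligand, had reads in 2 mice. Of 9 proteases that shed or trim these ligands, 0 were called, 6 lay above 0, against 48% of all genes, and the median was 0.14. At an unadjusted p under 0.05 in limma there were 2, Adam10 and Adam17, against 16.7% of all genes. Adam10 and Adam17, which release Cxcl16 from the membrane, differed by 0.14 and 0.12 (limma's adjusted p = 0.111 for each). Dpp4, which trims Cxcl9, Cxcl10 and Cxcl12, differed by -0.20 (adjusted p = 0.394).

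Of 27 genes of the NF-kB, IL-1, TNF and IL-17 pathway upstream of the neutrophil-attracting ligands, 3 rose and 2 fell, with a median of -0.029, against 2.41% of all genes called higher and 1.84% lower. At an unadjusted p under 0.05 in limma there were 10, against 16.7% of all genes. In the list 12 lay above 0 and 15 below, against 48% of all genes above 0. Tnfrsf1b, a TNF receptor, rose by 0.23 (SE 0.0452, limma's adjusted p = 0.00985) and Il17ra, the shared IL-17 receptor chain, by 0.22 (SE 0.0450, adjusted p = 0.0122). Zfp36, which destabilises cytokine mRNA, rose by 0.33 (SE 0.0814, limma's adjusted p = 0.0354). Tlr2 fell by 0.26 (SE 0.0593, adjusted p = 0.0225) and Myd88, the adaptor of Toll-like and IL-1 receptors, by 0.15 (SE 0.0394, adjusted p = 0.0460). After quantile normalization all of these calls were lost, with adjusted p-values from 0.0704 for Tnfrsf1b to 0.174 for Myd88. Zfp36 was no longer called without filtered-air mouse 2, 3, 4 or 6 or ozone mouse 3, 5 or 6 (0.27 to 0.34, adjusted p = 0.0528 to 0.0847 in limma), nor Tlr2 without filtered-air mouse 1 or 2 or ozone mouse 3 or 5 (-0.25 to -0.23, adjusted p = 0.0512 to 0.0588). Myd88 kept its call only when ozone mouse 1 or 5 was removed, and in the other 10 such fits had adjusted p-values of 0.0501 to 0.110. Its call was also lost with the variance trend, median centring, and RNA integrity or depth as a covariate (adjusted p = 0.0501 to 0.0690). Zfp36 differed by 0.11 in batch 1 and 0.54 in batch 2, and by 0.21 without filtered-air mice 4 and 6 (adjusted p = 0.191). It lost its call without the filter on low values, with the variance trend and with RNA integrity as a covariate (adjusted p = 0.0514 to 0.0543). Tnf differed by -0.60 (adjusted p = 0.0813) and Il1b by 0.024 (adjusted p = 0.972).

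The interferon genes were examined beside Cxcl9, with 4.25% of all genes called. Of 17 tested genes of the interferon signalling axis, 0 were called, 6 lay above 0 and 11 below, with a median of -0.018. Of 24 genes known to be induced by interferon-gamma, 0 were called in limma, 12 lay above 0 and 12 below, with a median of -0.00018, and 8 had an unadjusted p under 0.05, against 16.7% of all genes. Irf1 differed by -0.14 (adjusted p = 0.226), Ifng by -0.088 (adjusted p = 0.372), Gbp5 by 0.23 (adjusted p = 0.0832) and Gbp8 by -0.27 (adjusted p = 0.0771).

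**Figure D3:**
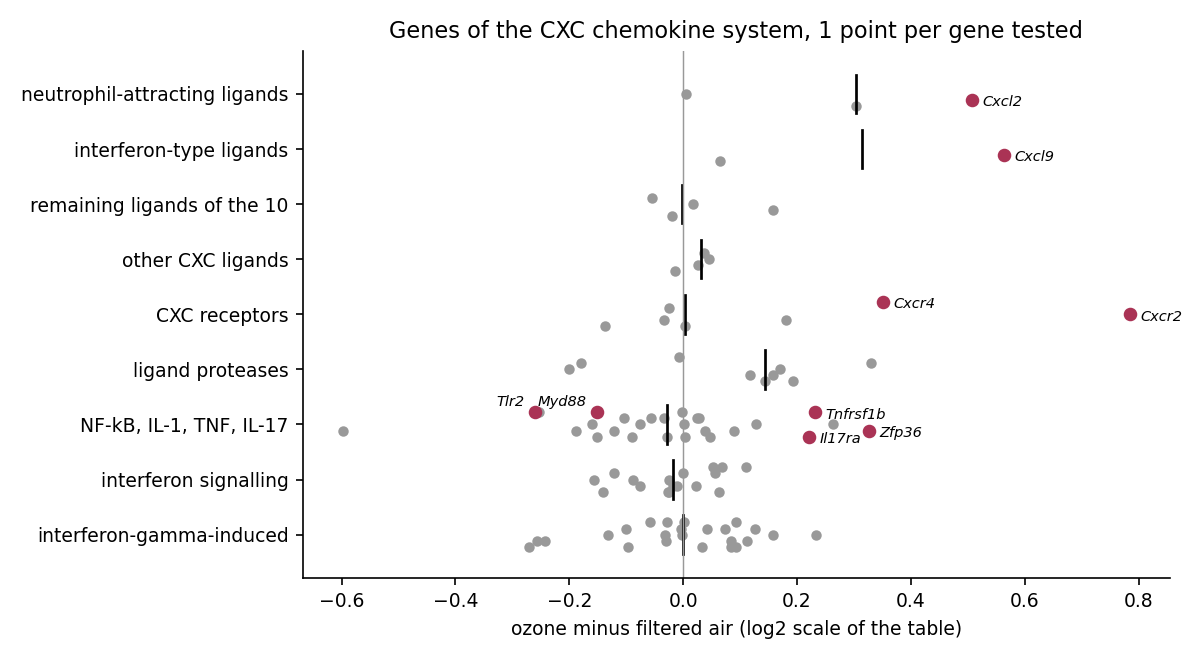
Ozone minus filtered air (horizontal axis, log2 scale) for the genes of the CXC system, 1 point per tested gene, with the median of each list as a vertical bar. Genes called in limma are coloured and named: Cxcl2, Cxcl9, Cxcr2, Cxcr4, Tnfrsf1b, Il17ra and Zfp36 above 0, Tlr2 and Myd88 below it.

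The sorted cells carried reads of all 17 listed alveolar macrophage markers in every mouse, with 2 called higher and 2 lower after ozone, against 4.25% of all genes called. Markers of other cells were also present and are given because CXC ligands are made by several cell types. Of 11 neutrophil markers 6 were tested and 0 called, the mean level of the list in a mouse ranging from -0.10 to 0.25 in filtered air and from -0.10 to 0.066 after ozone. Camp and Elane were constant over all mice, and Ly6g, Ngp and Mpo had reads in 1, 2 and 3 mice. Of 10 T and NK cell markers 0 were called and 8 lay below 0 (filtered air -0.25 to 0.28, ozone -0.19 to 0.14), and of 10 interstitial macrophage markers 0 were called and 8 lay above 0, with a median of 0.079 (filtered air -0.20 to 0.21, ozone 0.0057 to 0.24). Of 8 fibroblast markers 0 were called, 5 lay above 0 and 3 had an unadjusted p under 0.05 in limma (filtered air -0.11 to 0.12, ozone -0.054 to 0.27), and of 8 tested platelet markers 0 were called and 6 lay below 0 (filtered air -0.019 to 0.031, ozone -0.089 to 0.0026). In the platelet list, ozone mouse 4 was the only ozone mouse inside the filtered-air range, and the others lay below it. All 6 B cell markers lay below 0 after ozone with 0 called, a median of -0.19 and 4 at an unadjusted p under 0.05 in limma (filtered air -0.24 to 0.35, ozone -0.29 to -0.12). Over all genes 48% lay above 0 and 16.7% had an unadjusted p under 0.05 in limma. Counts under it were 8 of 17 for alveolar macrophage, 2 of 10 for interstitial macrophage and 2 of 8 for dendritic cell markers. They were 1 of 6 for neutrophil, 1 of 8 for platelet, 1 of 9 for epithelial, and 0 for T and NK cell and endothelial markers. Of 9 epithelial markers 7 lay below 0 and 1 was called, Epcam, which fell by 0.55 (limma's adjusted p = 0.00620), with list means of -0.21 to 0.28 in filtered air and -0.22 to 0.012 after ozone. Of 8 dendritic cell markers (filtered air -0.18 to 0.17, ozone -0.16 to 0.061) and 8 endothelial markers (filtered air -0.29 to 0.31, ozone -0.33 to 0.28) 0 were called, and 6 and 7 of them lay below 0. Ozone mouse 6, the highest in Cxcl9, had the highest mean level of its group in 5 of 9 such lists, and ozone mouse 1, the lowest in Cxcl9, had the lowest in 4. Their part in the Cxcl9 result was not tested. RNA integrity numbers ranged from 8.9 to 9.7 and relative depth, inferred from the size of 1 read, from 0.871 to 1.22.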

How the data were processed

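Sorted alveolar macrophages of 12 mice were sequenced, per the labels' protocols, as paired-end reads from stranded mRNA libraries. The submitters' processing notes name cutadapt, STAR 2.7.7a, Salmon 1.5.2, DESeq2 1.26.0, limma 3.42.2, R 3.6.0 and mm10, without their roles. The deposited log2 values had been variance-stabilised and batch-corrected by the authors, per the deposited file's name. The total read count is unknown, which limits precision for low genes. In the values, each gene's filtered-air mean and the difference between flow-sort batches were 0.

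Genes with at least 6 of 12 mice above the shared lowest value of their batch were kept (19633 of 25444 that varied). Ozone was compared with filtered air in limma 3.58.1 (R 4.3.3) with batch as covariate, without a variance trend, and Benjamini-Hochberg adjustment at 0.05. The trend was left out because, with filtered air set to 0, a gene's mean follows its ozone difference. The fit was tested on simulated data. Differences within a mouse between ligands used exact permutation, and correlations used 100000 permutations within groups. Relative depth comes from an inverse hyperbolic sine curve fitted to the steps of low values, 79.0% to 84.4% of which lay within 0.1 of whole reads. Named genes were the 10 ligands, called genes of the context lists, and the 5 most similar genes for Cxcl2, Cxcl9 and Cxcl10. Further uncalled list members (Cxcr3, Ackr1, Cxcl5, Adam10, Adam17, Dpp4, Tnf, Il1b, Irf1, Ifng, Gbp5 and Gbp8) and markers were named after their values were seen. The ligands and lists were chosen with earlier results of these data known. Alternatives covered filters, scaling, covariates, single batches, the replicate block and left-out mice. The fit without filtered-air mice 4 and 6 and the tests between ligands, over all mice and within batches, were added after the data were seen.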

Additional observations from a re-analysis of the deposited data

Results flagged for a closer look

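Single mice lay apart from the rest of their group in 3 of the 20 sets of 6 values, 1 set per ligand and exposure (Dixon's ratio above its 95% critical value), where chance gives about 1 in 20. Filtered-air mouse 5 was the highest of its group in Cxcl9, at 0.23 (ratio 0.693), and in Cxcl11, at 0.095 (ratio 0.808), where it was the only filtered-air mouse with reads. The other 5 sit at the shared lowest value there, so that ratio follows from the floor and is not to be read against the chance rate. Filtered-air mouse 4 was the highest in Cxcl16, at 0.56 (ratio 0.723). The ozone difference of Cxcl3 had opposite signs in the flow-sort batches. All 3 ozone mice of batch 1 lay above the filtered-air mean of their batch and all 3 of batch 2 lay below it, a difference of -0.40 for batch 2 minus batch 1, and limma's interaction did not pass (unadjusted p = 0.144, adjusted p = 1.00).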

How the results depend on the processing

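Of the 9 tested ligands 2 were called, a count that became 0 with the variance trend, after quantile normalization and in either batch alone, 1 without filtered-air mice 4 and 6, and 0 to 4 when single mice were left out (0 without filtered-air mouse 1 or ozone mouse 3, 4 without filtered-air mouse 4). The 834 genes called in all became 171 after quantile normalization, 90 in batch 1, 0 in batch 2 and 509 without filtered-air mice 4 and 6, and 538 to 751 without single mice. The 5 context genes called higher became 3 with the variance trend, 2 after quantile normalization and 0 in either batch, and 4 to 5 without single mice. The 2 called lower became 1 with the variance trend, after median centring and with depth as a covariate, 0 after quantile normalization, in either batch and without filtered-air mice 4 and 6, 4 without the batch covariate, and 0 to 3 without single mice. Uncalled differences that changed sign were those of Cxcl3 in batch 2 (-0.20, and -0.099 to 0.12 without single mice), Cxcl10 in batch 1 (-0.013, and -0.035 to 0.14), Cxcl12 without filtered-air mice 4 and 6 (0.0029, and -0.069 to 0.033) and Cxcl16 in batch 2 (-0.17, and -0.064 to 0.14). The response of Cxcl2 minus that of Cxcl3, 0.50, fell short with mice permuted within batches (exact permutation, adjusted p = 0.05), and was 0.45 to 0.54 without single mice. Single batches and left-out mice use fewer animals. The variance trend follows the ozone differences, because filtered air is set to 0. Elsewhere the cause was not tested.

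Both exposures use the same replicate numbers for different animals, so the samples were not treated as paired. Deviations of same-numbered mice correlated at -0.0026 to 0.28, with 4 of 6 above 0.1. With the replicate block, 2 ligands were called (adjusted p = 0.0228 for Cxcl2 and 0.0124 for Cxcl9 in limma), as were 853 genes in all, 8 context genes higher and 4 lower, while Myd88 lost its call (adjusted p = 0.110). Depth limits Cxcl11, at about 1 read where present.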
